A study of Homo sapiens with 2 samples.

Results

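The regions described here are the ATAC-seq peaks that lie on assembly contigs outside the numbered chromosomes, X, Y and the mitochondrial sequence. They were picked by the sequence name in the peak lists, and the rule uses no fold, q-value or width. J76 held 674 such peaks among 59631, and 293T held 528 among 85597, which makes 1202 of 145228 peaks in all. ATAC-seq uses the Tn5 transposase, which cuts accessible DNA and joins sequencing adapters to the cut ends, and a peak is a stretch where such cuts pile up above the background. J76 is given in the labels as a human acute T-lymphoblastic leukemia line, and as background it is a Jurkat subline that lacks T cell receptor chains. The other line is human embryonic kidney, called T293 in the sample label and 293T in the protocol, and written 293T here. Both libraries came from 50000 growing cells and a transposase made by the submitters, with no treatment named. Each line had 1 library, so differences between the lines could not be set against replicate error and no test was made.

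Contigs of this kind are pieces of human sequence that the reference assembly could not put in order. An unlocalized contig is assigned to a chromosome without a position on it, and an unplaced contig is assigned to no chromosome. Much of what could not be ordered is repetitive, such as satellite DNA near centromeres, segmental duplications and the ribosomal DNA of the acrocentric short arms. The ribosomal DNA is a tandem array of units, each with a 45S gene, which RNA polymerase I transcribes into the precursor of the 18S, 5.8S and 28S ribosomal RNAs, followed by a long intergenic spacer. A read from such a repeat can fit many places in the assembly. The sources used here give neither how reads with several equal positions were treated nor the genome build. The contig names belong to GRCh38, and positions are given on that ground, counted from 1.

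The sequence of the contigs was not used here, so no peak sequence on them is printed. Hairpins that belong to the ribosomal unit could be taken from the RefSeq table for GRCh38.p14. The first is that of MIR6724-4 on chromosome 21 (chr21:8432530-8432621, plus strand), which lies from 692 to 601 bp before the start of the 45S gene RNA45SN1. It is shown because that offset lies inside the peaks that both lines had at the 45S start on the contigs. The hairpin is 92 bases long, and the capitals mark the 23 bases of the mature hsa-miR-6724-5p. The second, MIR10396B (chr21:8436324-8436374, plus strand), lies inside the RNA45SN1 gene from 3102 bp after its start. It is shown as the contrast, since no peak of either line covered it, and the capitals mark its mature arms.
MIR6724-4: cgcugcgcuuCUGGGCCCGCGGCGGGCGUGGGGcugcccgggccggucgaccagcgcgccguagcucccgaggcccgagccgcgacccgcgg
MIR10396B: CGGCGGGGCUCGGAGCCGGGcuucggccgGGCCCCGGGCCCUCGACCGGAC
A peak of each line covered the MIR6724-4 hairpin on chromosome 21, and MIR6724-2, beside another unit of that chromosome, has the same sequence and was also covered in both lines. Whether the contigs hold further copies of these hairpins was not looked for.

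The contigs took a larger share of the J76 list than of the 293T list. They held 1.13% of the J76 peaks (95% Wilson interval 1.05 to 1.22) and 0.617% of the 293T peaks (0.567 to 0.672). All intervals given here cover counting error only. By length, contig peaks made up 1.0% of the bases under peaks in J76 and 0.553% in 293T, with 323 kb and 259 kb covered. There were 1.28 J76 peaks for each 293T peak on contigs and 0.691 on chromosomes 1 to 22 and X. Of the single chromosomes 1 to 22 and X, the ratio ran from 0.383 on chromosome 13 to 1.14 on chromosome 20, with a median of 0.765 over 23 chromosomes, so the contig ratio lay above each of these. Chromosome Y, with 227 J76 and 118 293T peaks, had a higher ratio than the contigs. Whether both lines carry this chromosome was not looked at, so its ratio may not compare with those of the other chromosomes. Read counts are not part of the lists and the sequencing depth is unknown, so a contig without a peak in a list is not thereby shown to be closed.

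Peaks lay on 96 contigs in all, on 92 in J76 and on 77 in 293T. On 73 contigs both lines had a peak, on 19 only J76 had peaks (28 in total), and on 4 only 293T did (9 in total). J76 had more peaks on 61 contigs, 293T on 18, and the numbers were equal on 17. The 36 contigs with at least 10 peaks over both lists together held 556 of the J76 and 443 of the 293T peaks. Among those, 27 had more J76 peaks, 5 had more 293T peaks and 4 had equal numbers.

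**Figure D1:**
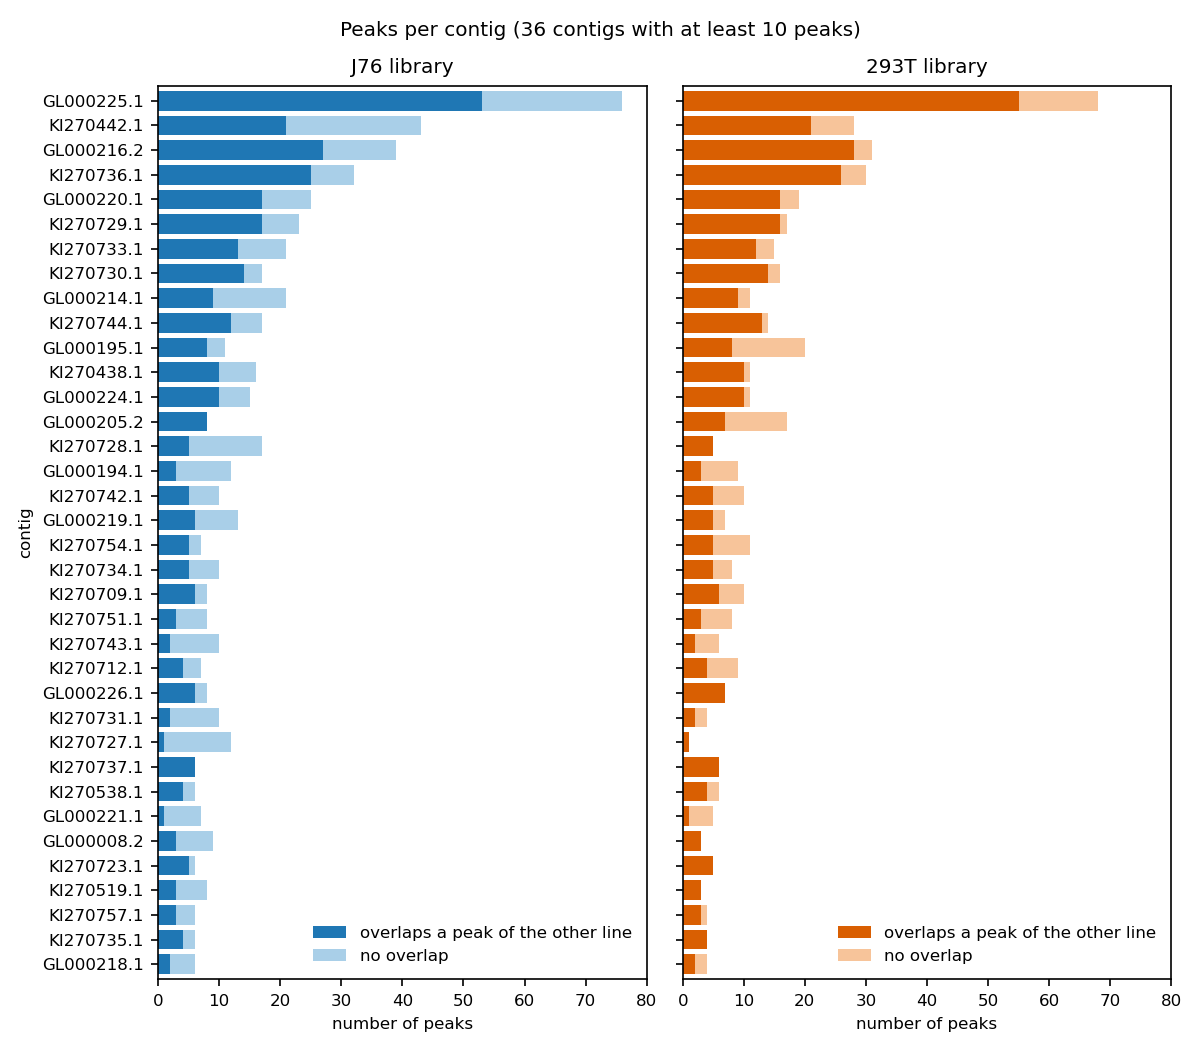
Number of peaks (horizontal axis) on each of the 36 contigs with at least 10 peaks over both lists together, 1 panel per line, with the darker length of each bar for peaks that overlap the other line. GL000225.1 has the longest bars, 76 and 68 peaks, and KI270727.1 has 12 peaks in the J76 panel and 1 in the 293T panel.

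Most contig peaks of 293T, and over 50% of those of J76, shared at least 1 bp with a peak in the other list. In J76, 379 of 674 contig peaks did so, or 56.2% (52.5 to 59.9), where 52.3% of the peaks on chromosomes 1 to 22 and X overlapped. In 293T it was 380 of 528, or 72.0% (68.0 to 75.6), where the share on the chromosomes was 36.0%. The J76 share was thus close to its background and the 293T share far above its own. These are not separate results. The overlapping peaks were nearly equal in number in both lists, with 379 and 380 on contigs and 30696 and 30566 on chromosomes. Given the J76 shares, the 293T gap follows from the J76 peaks per 293T peak, 1.28 on contigs and 0.691 on chromosomes. In overlapping pairs the summits lay a median of 30 bp apart on contigs (interquartile range 8 to 100) and 25 bp apart on chromosomes (9 to 66). Summits within 100 bp of each other made up 74.9% of the overlapping J76 contig peaks, against 81.6% on chromosomes.

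Overlap rose with the strength of the peak, except that the share of 293T contig peaks was lower in the strongest class than in the class before it. Strength is here the authors' −log10 q-value, a measure of the significance of a peak and not of its height above the background. It is used only to sort peaks within a list. Among the 293T peaks with −log10 q below 5, 42.5% of the 113 on contigs (33.8 to 51.7) overlapped a J76 peak, against 9.11% on chromosomes. Between 5 and 10 the 293T shares were 63.2% of 163 contig peaks (55.6 to 70.2) and 20.5% on chromosomes. From 10 to 20 they were 90.5% of 126 (84.1 to 94.5) and 40.3%. The weak and middle classes of 293T contig peaks thus overlapped a J76 peak far more often than chromosomal peaks of the same classes. The larger number of J76 peaks per 293T peak on contigs also enters these shares. J76 peaks were denser on contigs, with a median gap of 3.58 kb, against 21.9 kb on chromosomes. A 1-bp overlap by position alone is therefore likelier on contigs, and its part in these shares was not tested. From 20 to 50 the shares were 93.6% of 94 (86.8 to 97.0) and 65.2%, and at 50 or more 84.4% of 32 (68.2 to 93.1) and 90.3%. In the strongest class the interval on contigs covered the chromosomal share.

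J76 showed smaller gaps between contigs and chromosomes. Below 5, 23.8% of its 151 contig peaks overlapped (17.7 to 31.2), against 17.7% on chromosomes. Between 5 and 10, 41.7% of 199 did (35.1 to 48.7), against 38.7%. In the weaker class the lower bound was close to the chromosomal share, and in the other the interval covered it. The contig share was above the chromosomal one from 10 to 20, with 73.4% of 154 (65.9 to 79.7) against 57.5%. It was also above from 20 to 50, with 83.1% of 118 (75.3 to 88.8) against 70.9%. At 50 or more, 94.2% of 52 contig peaks overlapped (84.4 to 98.0), against 94.7%.

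**Figure D2:**
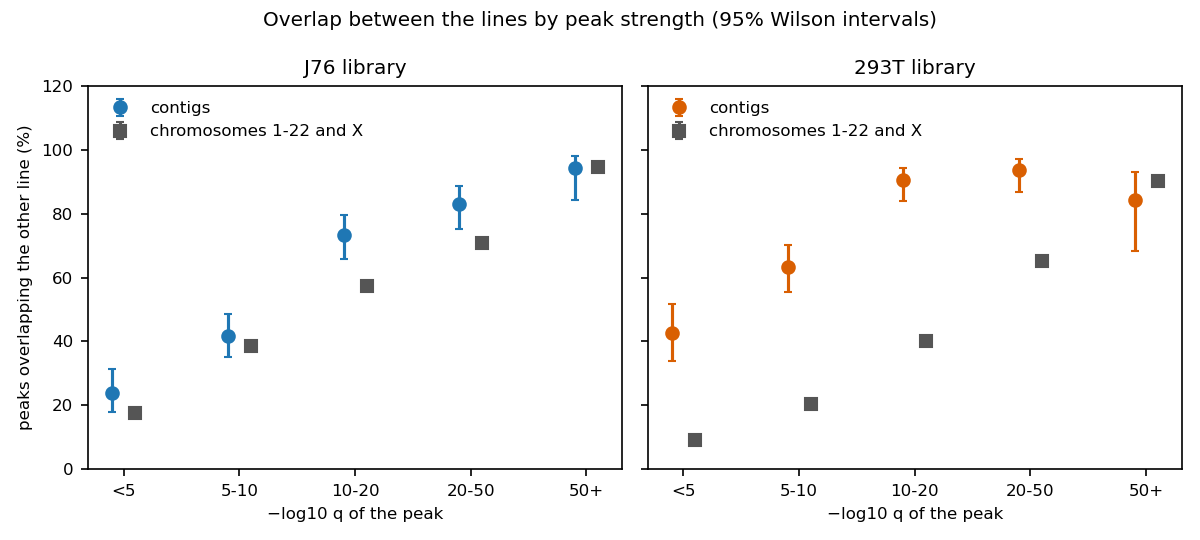
Share of peaks (percent, vertical axis) that overlap a peak of the other line, by class of the authors' −log10 q (horizontal axis), for contigs with 95% Wilson intervals and for chromosomes 1 to 22 and X, 1 panel per line. In 293T the contig points lie above the chromosomal ones in the 4 classes below 50, and in J76 the points lie close together below 10.

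Contig peaks had somewhat lower median widths than other peaks, and lower folds. Median width was 343.5 bp in J76 (interquartile range 253 to 558.5), against 370 bp on chromosomes (257 to 720). In 293T it was 340.5 bp (251 to 545.25), against 365 bp (254 to 693). From a −log10 q of 10 upward the contig medians were the narrower ones in both lines, and below 10 the wider ones. At 50 or more they were 793 bp against 1143.5 bp in J76, and 825 bp against 1282 bp in 293T. The narrowest was 200 bp in either line, and the widest were 3244 bp in J76 and 3384 bp in 293T. Fold is the authors' enrichment over the local background at the summit, a linear ratio. Its median was 3.35 on contigs (2.73 to 4.61) against 4.83 on chromosomes in J76. In 293T it was 3.55 (2.84 to 4.86) against 4.38. The contig median was the lower one in each line. The median −log10 q was lower on contigs in J76, with 9.42 against 10.7, and higher in 293T, with 9.50 against 8.94.

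Folds on contigs were low for the q-value they came with. In J76 the median folds on contigs, from the weakest class to the strongest, were 3.07, 3.31, 3.52, 4.73 and 7.71. The same classes on chromosomes had medians of 3.29, 4.17, 5.56, 7.35 and 9.48. In 293T the contig medians were 2.92, 3.15, 3.83, 5.54 and 8.93, and the chromosomal ones 3.15, 4.05, 5.42, 7.40 and 9.0. Peaks with a fold below 2 numbered 61 in J76, 9.05% of its contig peaks (7.11 to 11.5), where the share on chromosomes was 0.199%. In 293T there were 30, or 5.68% (4.01 to 8.00), where it was 0.303%. These low-fold peaks lay on few contigs: of the J76 ones, 15 were on GL000225.1, 11 on GL000220.1 and 10 on KI270733.1. Of the 293T ones, 10 were on GL000220.1, 8 on KI270733.1 and 6 on GL000225.1.

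**Figure D3:**
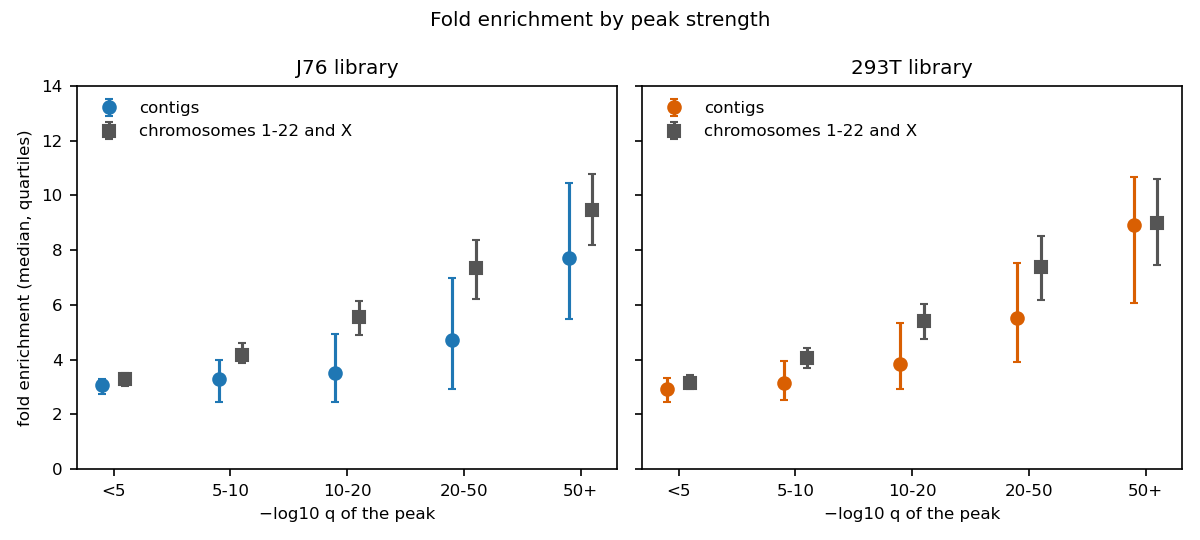
Median fold over the local background (vertical axis) by class of −log10 q (horizontal axis), for contig peaks and for peaks on chromosomes 1 to 22 and X, with bars for the interquartile range and 1 panel per line. The contig median lies below the chromosomal one in every class of both lines, most of all from 10 to 50.

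A peak that overlapped the other line was wider than one that did not, on contigs as on chromosomes. The medians on contigs were 420 and 280 bp in J76, and 375 and 270.5 bp in 293T. Fold separated the overlapping from the other peaks less on contigs than on chromosomes. On contigs the medians were 3.42 with overlap and 3.30 without in J76, and 3.68 and 3.28 in 293T. On chromosomes they were 6.23 and 3.95, and 6.46 and 3.76.

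Contig peaks lay close together. The median gap between neighbouring peaks was 3.58 kb in J76 and 2.88 kb in 293T on contigs, against 21.9 kb and 16.5 kb on chromosomes. Gaps under 5 kb made up 57.0% and 61.4% on contigs, against 17.6% and 21.6%. The 36 contigs with at least 10 peaks were also sorted by peaks per 10 kb of the stretch their peaks span, a grouping chosen after the values were seen. In J76, the 8 contigs with at least 2 peaks per 10 kb held 175 peaks, of which 72.6% overlapped a 293T peak and whose median fold was 2.61. Its 18 contigs with fewer than 1 per 10 kb held 187 peaks, of which 43.9% overlapped, at a median fold of 3.93. In 293T the densest group had 7 contigs and 118 peaks, with 79.7% overlapping and a median fold of 2.84. Its sparsest group had 23 contigs and 198 peaks, with 67.2% and 3.55. In each list the densest group thus had a lower median fold and more overlap than the sparsest. With 1 to 2 peaks per 10 kb, overlap was 61.3% in J76 and 80.3% in 293T, at median folds of 3.23 and 3.26. Overlap in 293T thus did not rise from this middle group to the densest. The densest and sparsest intervals overlapped in 293T (71.5 to 85.9 and 60.4 to 73.3). In J76 they did not (65.5 to 78.6 and 36.9 to 51.0). Overlap by position alone is likelier where peaks are dense, and its part in the differences between these groups was not tested. The peaks of 1 contig share their surroundings and are not independent.

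**Figure D4:**
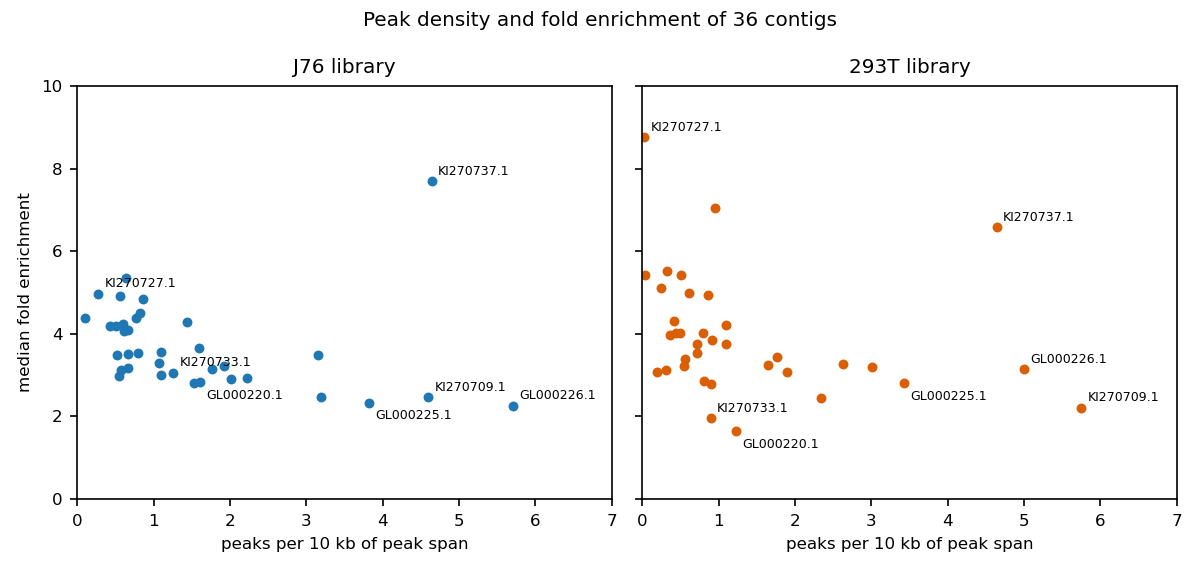
Median fold (vertical axis) against peaks per 10 kb of spanned contig (horizontal axis) for the 36 contigs with at least 10 peaks over both lists, 1 point per contig and 1 panel per line. Dense contigs such as GL000225.1 and KI270709.1 lie low, sparse ones lie mostly higher, and KI270737.1 is dense with a high fold.

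The host chromosomes named for unlocalized contigs here come from general knowledge of GRCh38, since the tables used do not pair contigs with chromosomes. By that assignment, 342 J76 and 278 293T peaks were unlocalized, on 37 and 35 contigs, and 332 and 250 were unplaced, on 55 and 42 contigs. Overlap was 57.3% (52.0 to 62.4) and 55.1% (49.7 to 60.4) in J76 for the unlocalized and the unplaced, and 70.1% (64.5 to 75.2) and 74% (68.2 to 79.0) in 293T, so the intervals of both kinds overlapped. Contigs of chromosome 14 held 109 J76 and 89 293T peaks, a ratio of 1.22, where the ordered part of chromosome 14 had 1.0. For chromosome 22 the numbers were 89 and 69, a ratio of 1.29 beside 1.13. Contigs of chromosome 17 had 48 and 50, a ratio of 0.96 beside 1.02. The contigs of some other hosts stood further from their ordered parts. Contigs of chromosome 1 held 34 and 32 peaks, where the ordered part had 0.568 J76 peaks for each 293T peak. Those of chromosome 16 held 17 and 5 (0.897 on the ordered part), those of 15 held 12 and 1 (0.976), and those of 4 held 9 and 3 (0.592). Chromosome 2 went the other way, with 0 J76 and 7 293T contig peaks (0.587). In these counts the excess of J76 peaks was not the same on the contigs of every host. Several of the counts are small, and those of chromosomes 4, 15 and 16 come from a single contig each. Differences between hosts were not tested.

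GL000225.1, an unlocalized contig of chromosome 14, held the most peaks, 76 in J76 and 68 in 293T. Of these, 53 and 55 overlapped the other line, which is 69.7% (exact Clopper-Pearson interval 58.1 to 79.8) and 80.9% (69.5 to 89.4). Median width was 345 bp and 299.5 bp, and the peaks covered 31.2 kb and 23.8 kb. The peaks were crowded into the first part of the contig: 74 of the J76 and 66 of the 293T peaks came before a stretch free of peaks. Up to that stretch, peaks covered 21.3% of the sequence in J76 and 16.5% in 293T, with a median of 887 bp and 1197 bp between neighbours. The empty stretch ran from 144090 to 196910 in J76 (52.8 kb) and from 141004 to 196910 in 293T (55.9 kb), and 2 peaks of each line followed it. Both lists thus resumed at the same position. Before the stretch, folds ran from 1.54 to 4.71 in J76 and from 1.84 to 5.65 in 293T.

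GL000220.1 and KI270733.1 carry ribosomal DNA. The RefSeq table gives the 45S genes RNA45SN5 at 105424 to 118780 and RNA45SN4 at 122273 to 135645 without a contig name, and their assignment to GL000220.1 and KI270733.1 comes from general knowledge of the assembly. As a check against the lists, position 105424 was under a peak on 3 contigs in J76 and 2 in 293T, of which the peak on GL000220.1 alone was wider than 2 kb. Position 122273 was under a peak on KI270733.1 alone in either line. The width limit was set after the peaks were seen, so the first check is weak. Both checks rest on the same peaks that are described below at the 45S starts, so they are not separate from that result. GL000220.1 held 25 J76 and 19 293T peaks, of which 17 and 16 overlapped, with median widths of 404 and 714 bp and 17.4 kb covered in both lines. KI270733.1 held 21 and 15 peaks, with 13 and 12 overlapping, median widths of 600 and 889 bp, and 18.3 kb and 16.5 kb covered. On KI270733.1 the median width of each line was the largest among the 36 contigs with at least 10 peaks.

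The start of the 45S gene, where the RNA polymerase I promoter lies, was under a wide peak of low fold in both lines. On GL000220.1 the J76 peak ran from 0.921 kb before the start to 1.561 kb after it, with a fold of 1.59 and a −log10 q of 11.2. The 293T peak ran from 0.947 kb before to 1.637 kb after, with a fold of 1.63 and a −log10 q of 11.2. On KI270733.1 the peaks ran from 0.906 kb before to 2.337 kb after in J76 (fold 1.51) and from 0.937 kb before to 2.345 kb after in 293T (fold 1.56). Within a contig, the edges of the 2 lines differed by less than 0.1 kb. The units of RNA45SN2, RNA45SN3 and RNA45SN1 on chromosome 21 also had a peak over the 45S start in both lines. Its folds there were 1.71, 1.82 and 1.66 in J76 and 1.77, 1.94 and 1.66 in 293T. Another peak lay at the end of the 45S gene in both lines, with folds of 1.57 and 1.63 on GL000220.1 and of 1.75 and 1.85 on KI270733.1. Both lines also had a peak near 11.7 kb before the start on either contig, with summits 11.681 and 11.689 kb before it on GL000220.1 and 11.672 and 11.806 kb on KI270733.1. Of the 12 ribosomal RNA genes and pseudogenes that could be put on these contigs, 4 overlapped a J76 peak and 4 a 293T peak. They were the 45S and the 28S gene of either contig in both lines, and none of the 4 entries for 18S was among them.

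Low folds were the rule from 2 kb before the 45S start onward and not elsewhere on the same contigs. In that stretch of GL000220.1, J76 had 12 peaks with folds from 1.26 to 2.08 and 293T had 14 with folds from 1.36 to 2.90. On KI270733.1 each line had 10 there, with folds from 1.47 to 1.84 in J76 and from 1.31 to 3.44 in 293T. On the rest of the contigs, no peak had a fold below 2. The median fold there was 4.03 in J76 and 6.83 in 293T on GL000220.1, and 4.10 and 6.82 on KI270733.1. Since the 45S start peaks of chromosome 21 also had folds below 2, low folds in ribosomal units were not particular to the contigs.

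Several peaks of the intergenic spacer were called in 1 line alone. The one with the highest fold was a 293T peak at a like offset on both contigs, and it was singled out after its values were seen. On GL000220.1 it ran from 134021 to 135118, with a fold of 2.90 and a −log10 q of 43.3, and its summit lay 28.945 kb after the 45S start and 15.027 kb before the next one. On KI270733.1 it ran from 152072 to 153131, with a fold of 3.44 and a −log10 q of 50.3, and its summit lay 30.086 kb after the start and 14.995 kb before the next one. The start of the next unit was set from the pseudogene entry of its 18S gene. In either case it had the highest fold of the contig's 293T peaks from the 45S start onward. J76 had no peak from 118977 to 141966 on GL000220.1 (22.99 kb) or from 141941 to 155370 on KI270733.1 (13.43 kb). At a like offset in the 3 units of chromosome 21, 293T had peaks with folds of 2.73, 2.81 and 2.91. In the unit of RNA45SN2, J76 had a peak nearby with a fold of 1.59. It overlapped a weaker 293T peak (fold 1.68) and not the one with a fold of 2.73. In the unit of RNA45SN3, a 234-bp J76 peak with a fold of 1.55 overlapped the 293T peak. In that of RNA45SN1, J76 had none there. Of the units on chromosome 21, only that of RNA45SN3 thus had a J76 peak over this 293T peak. Weaker spacer peaks of 1 line alone were GL000220.1:119552-120414 (fold 1.65) and KI270733.1:153529-153867 (fold 1.96) in 293T, and KI270733.1:141706-141940 (fold 1.53) and KI270733.1:155371-155970 (fold 1.70) in J76. Reads of ribosomal repeats cannot be assigned to 1 copy, so these units are not independent observations, and the difference was not tested.

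**Figure D5:**
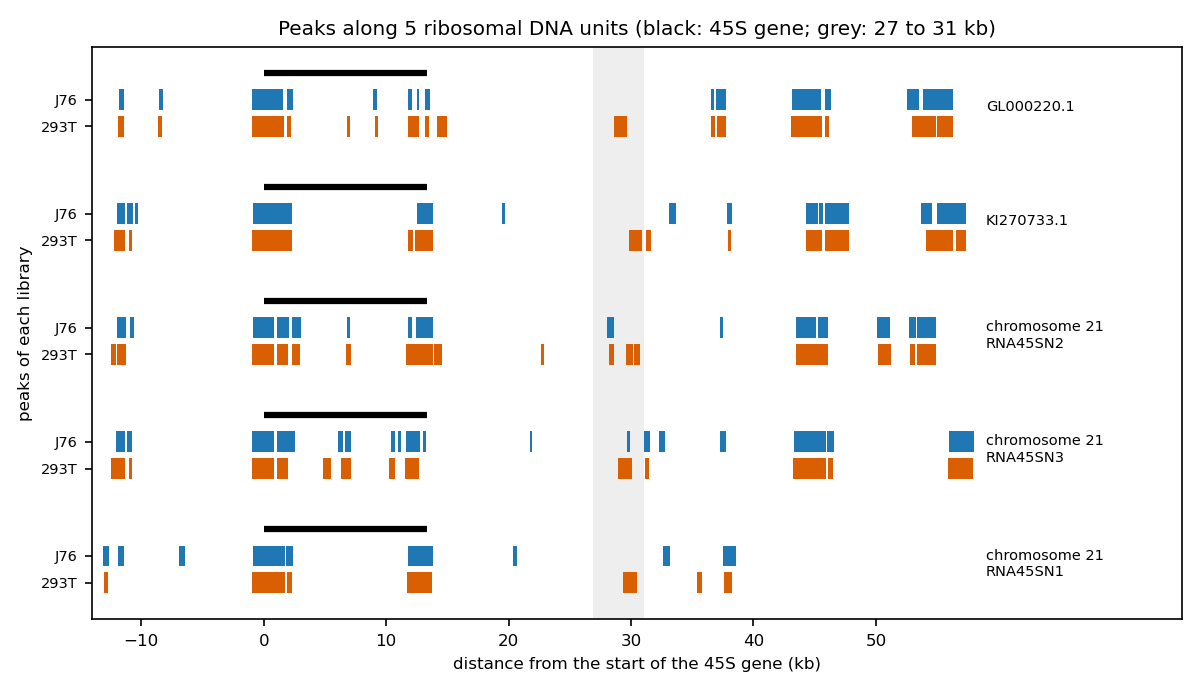
Peaks along 5 ribosomal units, on GL000220.1, on KI270733.1 and 3 on chromosome 21, as bars by distance in kb from the start of the 45S gene (horizontal axis), with a row per line, the 45S gene in black and the stretch from 27 to 31 kb in grey. On both contigs each line has bars at the start and end of the gene, and only 293T has bars inside the grey stretch.

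KI270442.1, GL000216.2 and KI270736.1 followed in number of peaks. KI270442.1, unplaced, held 43 J76 and 28 293T peaks, with 21 of each overlapping, median widths of 277 and 319 bp, and 15.2 and 9.84 kb covered. GL000216.2, also unplaced, held 39 and 31 peaks, with 27 and 28 overlapping, median widths of 305 and 288 bp, and 14.2 and 11.2 kb covered. KI270736.1, of chromosome 22, held 32 and 30 peaks, with 25 and 26 overlapping, median widths of 326.5 and 297.5 bp, and 15.1 and 13.0 kb covered. The 3 contigs had similar median folds, between 2.94 and 3.56 in both lines, and overlap was lowest on KI270442.1 in each.

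On KI270729.1, of chromosome 17, J76 had 23 and 293T 17 peaks, with 17 and 16 overlapping, median widths of 285 and 403 bp, and 9.07 and 7.46 kb covered. KI270730.1, also of chromosome 17, held 17 and 16 peaks, with 14 of each overlapping, median widths of 327 and 323 bp, and 5.90 and 5.08 kb covered. GL000205.2, the last of that chromosome in this group, held 8 J76 and 17 293T peaks. All 8 J76 peaks there overlapped 7 of the 293T peaks, median widths were 466 and 390 bp, and 5.88 and 10.3 kb were covered. It thus had more peaks in 293T, while the J76 peaks were a subset by position. It also held a wide pair, GL000205.2:87266-89870 in J76 and GL000205.2:86733-90116 in 293T, the widest contig peak of the 293T list.

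GL000195.1, unplaced, also had more peaks in 293T, but 3 of its J76 peaks had no partner. It held 11 J76 and 20 293T peaks, with 8 of each overlapping, median widths of 368 and 362 bp, and 7.14 and 11.4 kb covered. Its widest 293T peak was GL000195.1:30331-33236, 2906 bp wide with a fold of 4.86, which J76 shared. KI270754.1 had 7 J76 and 11 293T peaks, with 5 of each overlapping, median widths of 348 and 333 bp, and 2.87 and 4.49 kb covered. The remaining contigs with more 293T peaks were of chromosome 1. KI270712.1 had 7 and 9 peaks, with 4 of each overlapping, widths of 280 and 317 bp, and 4.18 and 4.29 kb covered. KI270709.1 had 8 and 10, with 6 of each overlapping, widths of 305 and 357.5 bp, and 3.11 and 4.10 kb covered, packed at 4.6 and 5.75 peaks per 10 kb.

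Another group had far more J76 than 293T peaks. KI270727.1, of chromosome 15, had 12 J76 peaks and 1 293T peak, and that 1 overlapped. Its median widths were 304.5 and 840 bp, with 5.99 and 0.84 kb covered, and the exact interval for the J76 share that overlapped was 0.211 to 38.5%. KI270728.1, of chromosome 16 and the longest spanned contig, had 17 and 5 peaks, with 5 of each overlapping, widths of 317 and 421 bp, and 7.23 and 2.41 kb covered. GL000214.1 had 21 and 11, with 9 of each overlapping, widths of 335 and 336 bp, and 8.64 and 4.73 kb covered. On each of these, most or all 293T peaks lay over a J76 peak, while most J76 peaks had no partner. KI270519.1 had 8 and 3, with 3 of each overlapping, widths of 585 and 489 bp, and 5.09 and 1.78 kb covered. GL000008.2, of chromosome 4, had 9 and 3, with 3 of each overlapping, widths of 284 and 313 bp, and 3.98 and 1.91 kb covered. KI270731.1, of chromosome 22, had 10 and 4, with 2 of each overlapping, widths of 283.5 and 297.5 bp, and 3.38 and 1.28 kb covered.

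A further group was largely shared. GL000224.1, unplaced, held 15 and 11 peaks with 10 of each overlapping, widths of 411 and 492 bp, 7.72 and 6.90 kb covered, and median folds of 2.46 and 2.44. KI270744.1 held 17 and 14 with 12 and 13 overlapping, widths of 541 and 540 bp, 11.4 and 7.61 kb covered, and folds of 3.01 and 2.78. KI270438.1 held 16 and 11 with 10 of each overlapping, widths of 446.5 and 481 bp, and 9.95 and 6.68 kb covered. GL000226.1 held 8 and 7 with 6 and 7 overlapping, widths of 465.5 and 350 bp, and 4.16 and 2.64 kb covered within a 14-kb span. KI270723.1, of chromosome 14, held 6 and 5 with 5 of each overlapping, widths of 332 and 419 bp, and 2.93 and 2.54 kb covered. Nearly every 293T peak on these 5 contigs overlapped a J76 peak.

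KI270737.1, of chromosome 22, was the only one of the 36 contigs with at least 10 peaks on which every peak of both lines had a partner. Each line had 6 peaks there, and all 6 overlapped in both (interval 54.1 to 100%), with median widths of 292 and 283 bp, 1.76 and 1.74 kb covered, and median folds of 7.70 and 6.59. The summits of the 6 pairs lay 40 bp apart or less. KI270735.1 had 6 and 4 peaks with 4 of each overlapping, widths of 376 and 368.5 bp, and 2.48 and 1.52 kb covered. KI270734.1 had 10 and 8 with 5 of each overlapping, widths of 326 and 442.5 bp, and 4.19 and 3.62 kb covered. Both are of chromosome 22 as well, and median folds on the 3 contigs ran from 4.28 to 7.70, above the medians of all contig peaks in either line.

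The unplaced contigs KI270742.1, KI270751.1 and KI270538.1 had equal numbers of peaks in both lines, as KI270737.1 did. KI270742.1 had 10 with 5 overlapping, widths of 283.5 and 308.5 bp, and 3.46 and 3.92 kb covered. KI270751.1 had 8 with 3 overlapping, widths of 538.5 and 240.5 bp, and 5.79 and 3.83 kb covered. KI270538.1 had 6 with 4 overlapping, widths of 563 and 555.5 bp, and 3.15 and 3.44 kb covered. Equal numbers did not mean the same positions, since at most 66.7% of the peaks on these 3 overlapped.

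Overlap was low on the next 3 contigs. GL000221.1, of chromosome 3, had 7 and 5 peaks with 1 of each overlapping, widths of 326 and 263 bp, and 2.39 and 2.15 kb covered. KI270743.1 had 10 and 6 with 2 of each overlapping, widths of 340.5 and 229.5 bp, and 3.66 and 1.38 kb covered. GL000218.1 had 6 and 4 with 2 of each overlapping, widths of 289 and 336.5 bp, and 1.64 and 2.07 kb covered. On these 3 contigs at most 50% of the peaks of either line had a partner. The last unplaced contigs of this group lay in between. GL000219.1 had 13 and 7 with 6 and 5 overlapping, widths of 319 and 421 bp, and 5.47 and 3.43 kb covered. KI270757.1 had 6 and 4 with 3 of each overlapping, widths of 369.5 and 389 bp, and 3.40 and 2.56 kb covered.

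GL000194.1, of chromosome 14, had 12 J76 and 9 293T peaks with 3 of each overlapping, widths of 296 and 361 bp, and 3.61 and 4.73 kb covered. The RefSeq table lists MAFIP, a transcribed pseudogene, at 53589 to 115073 under chromosome 14, and its place on GL000194.1 comes from general knowledge of the assembly. A 293T peak at GL000194.1:114314-115612 lay over the upper end of MAFIP, with a fold of 8.85 and a −log10 q of 53.3, and no J76 peak overlapped it. Near the other end of MAFIP both lines had a peak, at 56024 to 56227 in J76 (fold 3.07) and at 55889 to 56569 in 293T (fold 4.62). In all, 5 J76 and 4 293T peaks lay in MAFIP or within 1 kb of it. The table gives no strand for the gene, so its start and end were not told apart.

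The 60 contigs with fewer than 10 peaks held 118 J76 and 85 293T peaks, with 51 of each overlapping, or 43.2% and 60%. Their widths ran from 200 to 2339 bp in J76 and from 200 to 2428 bp in 293T, with medians of 360.5 and 350 bp. Median folds were 3.95 and 4.17, above those of all contig peaks. J76 alone had peaks on KI270750.1 (5 peaks, highest fold 4.17), KI270726.1 (3 peaks, highest fold 10.8) and KI270732.1 (3 peaks, highest fold 3.86). The only contig with at least 3 peaks in 293T alone was KI270716.1, with 6 peaks that covered 1.88 kb and a highest fold of 4.17. On KI270726.1 the J76 peaks reached −log10 q values of 44.2 and 34.4, whereas on the other 3 none went above 8.13.

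The steepest contig peaks each overlapped a peak of the other line, and 4 of the 6 with the highest folds began at the first base of their contig. KI270718.1:1-537 had the highest fold in J76, 20.2, and KI270718.1:1-528 the highest in 293T, 20.4. Next in J76 came KI270336.1:1-1082 with a fold of 14.9 and KI270435.1:91806-92960 with 13.9. In 293T they were KI270435.1:91798-92911 with 14.3 and KI270337.1:1-1068 with 14.1. The J76 peak on KI270336.1 met only 293T peaks with a fold of 5.84. The named peaks on KI270336.1 and KI270337.1 covered 100% and 99.1% of the 1.08 kb that the peaks of either contig span. Contig lengths were not used here, so these starts were not set against contig size. The starts at the first base led to a count of all peaks near contig starts, made after these values were seen. J76 had 20 peaks that begin within 200 bp of a contig's first base, 6 of them at the first base, with 14 overlapping and a median fold of 4.90. In 293T there were 14, with 4 at the first base, 13 overlapping and a median fold of 5.58.

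The widest J76 peaks were KI270733.1:121367-124610 at the 45S start (3244 bp), GL000205.2:87266-89870 (2605 bp) and GL000220.1:104503-106985 at the other 45S start (2483 bp). In 293T they were GL000205.2:86733-90116 (3384 bp), KI270733.1:121336-124618 (3283 bp) and GL000195.1:30331-33236 (2906 bp). All 6 had a partner in the other line. Among peaks without one, the highest folds in J76 were 11.1 at KI270742.1:168539-168940, 10.8 at KI270726.1:41200-42115 and 10.7 at KI270743.1:9364-9844. In 293T they were 11.8 at GL000218.1:96802-97928, 10.2 at KI270747.1:3396-4105 and 9.75 at GL000009.2:124184-125370. Steep peaks called in 1 line alone were thus spread over 6 contigs.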

How the data were processed

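The data were 1 ATAC-seq peak list per cell line. The submitters' processing notes name Bowtie2 and MACS2. Versions, settings, duplicate removal, any shift of cut positions, the treatment of reads with several positions and the build were not given in the sources used here. In the lists the authors deposited, the fold is a linear ratio, the p-value and q-value are −log10 values, and the integer score is 10 times the −log10 q. The summit is an offset from the peak start. Lists were called separately, so these values describe peaks within a list only.

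Contig peaks were taken by sequence name. Overlap was at least 1 bp (pandas 2.3.3, checked against bedtools 2.31.1 on simulated intervals). Shares carry 95% Wilson intervals, single contigs exact Clopper-Pearson ones (scipy 1.17.1). Contigs with at least 10 peaks over both lists are named, contigs seen in 1 line with at least 3, and per line the 3 steepest, 3 widest and 3 steepest unshared peaks. Ribosomal RNA genes came from RefSeq (GRCh38.p14). Members and lists were chosen with earlier results of these data known. Alternatives were an overlap of 50% of both peaks, summits within 250 bp, stricter q-values, lists of equal length, and contigs left out.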

Additional observations from a re-analysis of the deposited data

How the results depend on the processing

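Of 64 alternative values, 40 stayed near the reported one and 24 moved. The 40 include every value from a filter against contig peaks of 5 kb or wider, which removed no peak. They also include the J76 number, share of the list, width and fold with lists of equal length, since the J76 list was the shorter one. Those values could not move and say nothing about stability. With −log10 q of at least 5, median width was 400 bp in J76 and 385 bp in 293T, and median fold 3.72 and 3.94. At 10 or more, 324 and 252 contig peaks were left, the J76 share of its list was 1.04%, overlap 61.4% and 79.0%, width 489.5 and 467 bp, and fold 4.28 and 4.81. With both lists at 59631 peaks, overlap was 47.0% in J76 and 82.2% in 293T, and the 293T width 405 bp and fold 4.03. Without GL000225.1, contigs made up 1.0% and 0.538% of the lists, and the J76 fold was 3.52. With an overlap of 50% of both peaks, 47.3% and 60.4% were shared, and with summits within 250 bp, 50.7% and 64.8%.

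Set beside chromosomes, the 293T contig share stayed higher in each of these peak filters and overlap rules. Equal lists still held more J76 than 293T contig peaks, 674 against 383, so the ratio of peak numbers stayed in the comparison. The J76 order turned at a −log10 q of 10 or more (61.4% on contigs, 64.4% on chromosomes) and with equal lists (47.0% and 48.6%). Without GL000220.1 and KI270733.1, an alternative chosen after seeing the data, no value moved. No contig peak was as wide as 5 kb, so that filter removed none. No paired analysis was possible because each line had 1 library. Unknown depth limits every count, and the cause of each move beyond the smaller lists was not tested.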
